A study of Homo sapiens with 6 samples.

Results

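The genes of cholesterol synthesis and uptake were examined in CCD18Co, a cell line of fibroblasts from the human colon, after silencing of *LTBP2*. They are 32 genes chosen by symbol: 18 enzymes that lead from acetyl-CoA to cholesterol, and 14 genes that sense, move or answer to sterols. All 32 were found among the 60663 genes of the deposited count table. 31 of them were among the 16920 genes with enough reads to be tested. *ABCG1*, a sterol exporter, had between 0 and 5 reads in each library and was not tested. Cells were grown in medium with fetal bovine serum and were transfected with lipofectamine for 6 h. The siLTBP2 group received a pool of siRNAs against *LTBP2* and the siNT group a pool without a target, so that both carried transfected siRNA, and RNA was taken at 48 h. There were 3 libraries in each group, numbered 1 to 3. The sources used here do not say whether these were separate cultures, so p-values measure the spread between these libraries, which may be technical. The model is a single cell line and a single siRNA pool, and untransfected cells were not analysed here.

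Cholesterol is built from acetyl-CoA in the mevalonate pathway, which ends in farnesyl diphosphate, and then through squalene and lanosterol. The enzymes are controlled together by the SREBP transcription factors. When membrane sterols are low, SCAP escorts SREBP from the endoplasmic reticulum to the Golgi, where it is cut and freed. When sterols are high, the INSIG proteins hold SCAP back. Oxysterols act on the other arm: they bind the LXR receptors, which switch on exporters such as *ABCA1*. Fibroblasts make and export sterols by these routes.

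Each library held from 44663424 to 53576899 counted reads. Levels are given as CPM (counts scaled to library size) after TMM normalization, and differences as the log2 fold change of siLTBP2 over siNT from edgeR's quasi-likelihood test, with its standard error (SE) and a p-value adjusted by Benjamini-Hochberg over all 16920 genes. A gene is called changed at an adjusted p below 0.05. It is called deregulated at an adjusted p below 0.01 and a fold above 2. *LTBP2* itself went from 23.1 ± 1.89 CPM in siNT to 7.03 ± 1.39 CPM after silencing (SD, n = 3), a log2 fold change of -1.72 (SE 0.15, adjusted p = 6.6e-05). The summed level of 8 fibroblast markers lay between 9602 and 13745 CPM, and of these only *PDGFRB* changed (log2 fold change -0.60). Summed markers of epithelium, leukocytes and hepatocytes did not pass 0.47 CPM in any library, and those of endothelium lay between 0.80 and 2.01 CPM.

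The promoters of the 4 genes that changed, and of *SREBF2*, are shown because the pathway is known for control at this region. They come from RefSeq (GRCh38.p14) and run from 250 bases before to 50 bases after a transcription start, read 5′ to 3′ on the strand of the gene. Capitals mark 3 words searched on both strands: TCACNCCAC, a form of the sterol regulatory element, CCAAT, bound by NF-Y, and GGGCGG, bound by Sp1. Neighbouring matches of GGGCGG may overlap and are then joined. The windows are chr9:104928106-104928405 (minus strand) for *ABCA1*, chr1:154936670-154936969 (minus) for *PMVK*, chr11:65111622-65111921 (plus) for *TM7SF2*, chr3:47475892-47476191 (minus) for *SCAP* and chr22:41832855-41833154 (plus) for *SREBF2*.
ABCA1: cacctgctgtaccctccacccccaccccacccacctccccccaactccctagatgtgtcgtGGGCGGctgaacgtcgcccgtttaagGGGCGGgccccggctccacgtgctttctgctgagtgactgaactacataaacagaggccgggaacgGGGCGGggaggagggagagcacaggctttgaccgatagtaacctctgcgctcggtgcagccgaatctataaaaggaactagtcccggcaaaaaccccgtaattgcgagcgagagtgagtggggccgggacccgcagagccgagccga
PMVK: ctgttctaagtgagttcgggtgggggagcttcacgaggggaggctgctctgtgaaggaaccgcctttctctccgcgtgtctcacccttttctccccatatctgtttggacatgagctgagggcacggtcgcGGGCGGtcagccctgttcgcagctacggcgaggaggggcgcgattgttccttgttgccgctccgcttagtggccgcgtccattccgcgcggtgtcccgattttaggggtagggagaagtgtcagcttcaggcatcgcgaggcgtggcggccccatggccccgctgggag
TM7SF2: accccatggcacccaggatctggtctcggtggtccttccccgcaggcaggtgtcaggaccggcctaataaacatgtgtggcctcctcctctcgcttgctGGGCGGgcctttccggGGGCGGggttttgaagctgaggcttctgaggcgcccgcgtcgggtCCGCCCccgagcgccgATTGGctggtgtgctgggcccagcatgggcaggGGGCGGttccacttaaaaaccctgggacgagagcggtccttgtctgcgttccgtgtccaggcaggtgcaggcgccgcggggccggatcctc
SCAP: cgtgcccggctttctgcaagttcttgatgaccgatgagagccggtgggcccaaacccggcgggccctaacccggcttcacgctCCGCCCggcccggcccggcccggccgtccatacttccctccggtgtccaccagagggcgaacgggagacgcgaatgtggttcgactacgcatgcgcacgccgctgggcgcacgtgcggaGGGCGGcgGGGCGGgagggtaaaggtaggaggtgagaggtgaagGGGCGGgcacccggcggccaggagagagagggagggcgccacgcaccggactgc
SREBF2: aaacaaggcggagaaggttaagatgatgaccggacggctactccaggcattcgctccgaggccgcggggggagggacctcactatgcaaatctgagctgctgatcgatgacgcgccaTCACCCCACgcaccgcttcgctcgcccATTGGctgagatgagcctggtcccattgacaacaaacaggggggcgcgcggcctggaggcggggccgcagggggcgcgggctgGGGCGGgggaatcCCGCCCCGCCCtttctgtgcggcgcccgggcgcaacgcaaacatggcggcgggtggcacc

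Promoters were found for 27 of the 32 genes, with 38 starts in all. The sterol regulatory element word stood in 1 of these promoters, that of *SREBF2*, beginning at position -133 from the start. It stood in 1.13% of all 35116 promoters. CCAAT was found in 60.5% of the 38 promoters and in 34.6% of all promoters. GGGCGG was found in 86.8% of the 38 and in 45% of all. The median log2 fold change was -0.18 in the 20 genes with CCAAT, of which 12 lay below 0, and 0.15 in the 7 genes without it, of which 3 lay below 0. Of the 4 changed genes, only *TM7SF2* had CCAAT in this window, so that the 7 genes without it include *ABCA1*, *PMVK* and *SCAP*. These medians were not taken over all genes, and a link of CCAAT to the change was not tested. Each word is a match of letters and not a measured binding site.

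Of the 31 genes tested, 4 changed, which is 12.9%, whereas 19.3% of all genes tested changed. These calls, and those for single genes, come from the fit without a replicate block. With the replicate number as a block 16 genes changed, or 51.6%, where 36.2% of all genes did, and the blocked p is given beside each gene whose call it altered. *ABCA1* and *PMVK* rose, where 9.76% of all genes did, and *TM7SF2* and *SCAP* fell, where 9.51% did. Only *ABCA1* was deregulated, against 2.57% of all genes (1.29% higher and 1.27% lower). In bulk RNA, fewer cells that express a gene and less RNA per cell cannot be told apart. The log2 fold change was below 0 in 19 of the 31 genes (61.3%), where 50.7% of all genes were. The median of the 31 was -0.13, and the median of all genes was -0.01. The median of the 31 rested on single libraries. It was -0.00031 without siLTBP2 replicate 3 and -0.019 without siNT replicate 2, with 16 genes below 0 in each case, and -0.21 without siLTBP2 replicate 2. At an unadjusted p below 0.05, 9 genes were lower, where 16% of all genes were, and 3 were higher, where 16.3% were. The libraries of the groups did not overlap in 11 genes: 7 were lower in siLTBP2, where 18.3% of all genes were, and 4 were higher, where 18.7% were.

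**Figure D1:**
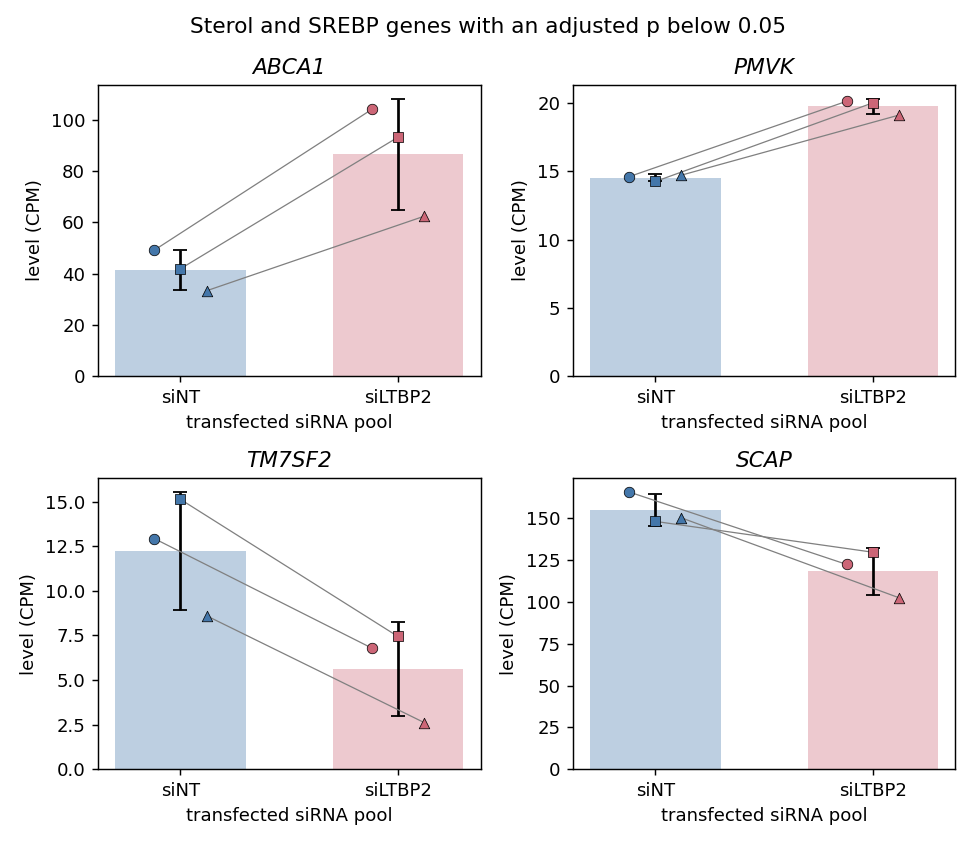
Level (CPM) of the 4 changed genes in siNT and siLTBP2. Bars show the mean, whiskers the SD of 3 libraries, points the libraries (circle, square and triangle for replicates 1, 2 and 3) and grey lines join libraries of the same number. The groups do not overlap in any panel.

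*ABCA1* encodes the exporter that loads cholesterol onto apolipoprotein A-I and is a direct target of LXR. *ABCA1* (ENSG00000165029) has 50 exons in its canonical transcript and lies on the minus strand of chromosome 9 (104781006 to 104928155, GRCh38). Its level was 49.2, 41.9 and 33.3 CPM in siNT replicates 1 to 3 and 104, 93.3 and 62.4 CPM in the siLTBP2 replicates. Every siLTBP2 library stood above every siNT library, and within both groups replicate 1 was the highest and replicate 3 the lowest. The mean went from 41.5 ± 7.95 to 86.6 ± 21.7 CPM (SD, n = 3), a log2 fold change of 1.06 (SE 0.19, adjusted p = 0.0029, edgeR). The gene also changed in each of 14 other analyses, which varied the test, the scaling, the filter, the block or the libraries. It was no longer deregulated when replicate 2 or 3 of siNT, or replicate 1 or 2 of siLTBP2, was left out, with log2 fold changes between 0.91 and 1.26 over the libraries left out in turn.

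The LXR receptors, *MYLIP* and *STARD4* did not pass the test without the block, and *ABCG1* was not tested. *NR1H2*, which encodes LXR beta, had a mean of 60.1 ± 6.46 CPM in siNT, and of 72.5 ± 2.44 CPM with *LTBP2* silenced (SD, n = 3). All its siLTBP2 libraries lay above the siNT libraries, and the log2 fold change was 0.27 (SE 0.09, adjusted p = 0.069 by edgeR and 0.0033 with the replicate block). *NR1H3*, which encodes LXR alpha, was lower in level than *NR1H2* per exon length (2.19 against 11.3 CPM per kilobase in siNT), and its log2 fold change was -0.19 (SE 0.17). *MYLIP* encodes a ubiquitin ligase that sends lipoprotein receptors to degradation and is an LXR target. It had a log2 fold change of 0.20 (SE 0.11), with overlapping groups. *STARD4*, a carrier of cholesterol between membranes, had a log2 fold change of 0.12 (SE 0.11).

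*PMVK* encodes phosphomevalonate kinase, which adds a phosphate to mevalonate phosphate. The gene (ENSG00000163344, 5 exons) lies on the minus strand of chromosome 1 (154924740 to 154936719). Its level was 14.6, 14.3 and 14.7 CPM in siNT and 20.1, 20.0 and 19.1 CPM in siLTBP2. The groups were well apart, and the libraries of each group lay close together, with means of 14.5 ± 0.24 and 19.8 ± 0.56 CPM (SD, n = 3). The log2 fold change was 0.44 (SE 0.10, adjusted p = 0.0091, edgeR), and the call held in each of the same 14 analyses. Its neighbours in the pathway, *MVK*, the mevalonate kinase, and *MVD*, the decarboxylase, both had a log2 fold change of -0.24 (SE 0.16 and 0.15). Neither passed the test without the block, and with it the adjusted p was 0.021 for *MVK* and 0.018 for *MVD*.

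The other mevalonate enzymes did not pass the test either. *HMGCS1* encodes HMG-CoA synthase, which condenses acetyl-CoA with acetoacetyl-CoA. It was at 79.5, 121 and 92.5 CPM in siNT and 77.4, 77.9 and 65.3 CPM in siLTBP2. All siLTBP2 libraries lay below all siNT libraries, but the nearest libraries of the groups were 77.9 and 79.5 CPM. Its log2 fold change was -0.41 (SE 0.14, adjusted p = 0.068 by edgeR and 4.1e-04 with the replicate block). *ACAT2*, the cytosolic thiolase of the opening step, had a log2 fold change of -0.32 (SE 0.13, adjusted p = 0.129, and 0.0024 with the block). *IDI1*, the isopentenyl diphosphate isomerase, had -0.17 (SE 0.15), and *FDPS*, the farnesyl diphosphate synthase, had 0.02 (SE 0.14). The groups overlapped in all 3 of these enzymes.

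Among the 11 enzymes from squalene to cholesterol, *TM7SF2* fell. It encodes a sterol reductase that acts after lanosterol demethylation. The gene (ENSG00000149809, 10 exons) lies on the plus strand of chromosome 11 (65111845 to 65116384). It was at 12.9, 15.1 and 8.61 CPM in siNT and 6.79, 7.44 and 2.62 CPM in siLTBP2. The groups did not overlap, and replicate 3 was the lowest library of both. The mean went from 12.2 ± 3.32 to 5.62 ± 2.62 CPM (SD, n = 3), and the log2 fold change was -1.13 (SE 0.33, adjusted p = 0.036, edgeR). The call was lost in DESeq2 (adjusted p = 0.085) and without siNT replicate 1 (0.081) or siNT replicate 2 (0.145).

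*SQLE* encodes squalene epoxidase, a rate-limiting step of the later pathway. Its level was 89.9, 96.3 and 97.3 CPM in siNT and 97.5, 91.5 and 88.4 CPM in siLTBP2, so that the groups overlapped widely. The log2 fold change was -0.03 (SE 0.08, adjusted p = 0.825, edgeR). *LSS*, which closes the squalene ring to lanosterol, had a log2 fold change of -0.43 (SE 0.16, adjusted p = 0.085, and 1.5e-05 with the block). *EBP*, the sterol isomerase, had -0.34 (SE 0.12, adjusted p = 0.074, and 0.0055 with the block), and *MSMO1*, the methyl sterol oxidase, had -0.30 (SE 0.13, adjusted p = 0.134, and 0.0023 with the block). In *EBP*, *MSMO1* and *NSDHL*, a dehydrogenase of the demethylation complex, all siLTBP2 libraries lay below all siNT libraries. In *LSS* they did not, since siLTBP2 replicate 2 (243 CPM) was above siNT replicate 3 (231 CPM). The log2 fold changes of *FDFT1* (squalene synthase), *CYP51A1*, *NSDHL*, *HSD17B7* (a sterol ketone reductase), *SC5D* (a sterol desaturase) and *DHCR7* (the reductase of the last precursor, dehydrocholesterol) lay between -0.24 and 0.07. Of these, *DHCR7* passed the test with the block, at an adjusted p of 0.0097.

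*CYP51A1*, the lanosterol demethylase, was listed at 4.97 ± 0.37 CPM in siNT, the lowest of the 18 enzymes. 68.2% of its exon bases are shared with another annotated gene on the same strand in GENCODE 44, and reads that fit both are usually not counted. Its level is therefore uncertain. In *EBP* 36.4% of exon bases are shared in this way. *HMGCS1*, *ACAT2* and *NR1H2* overlap genes on the opposite strand over 37.7%, 20.9% and 22.1% of their exon bases, and no source used here tells how strand was handled in counting.

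**Figure D2:**
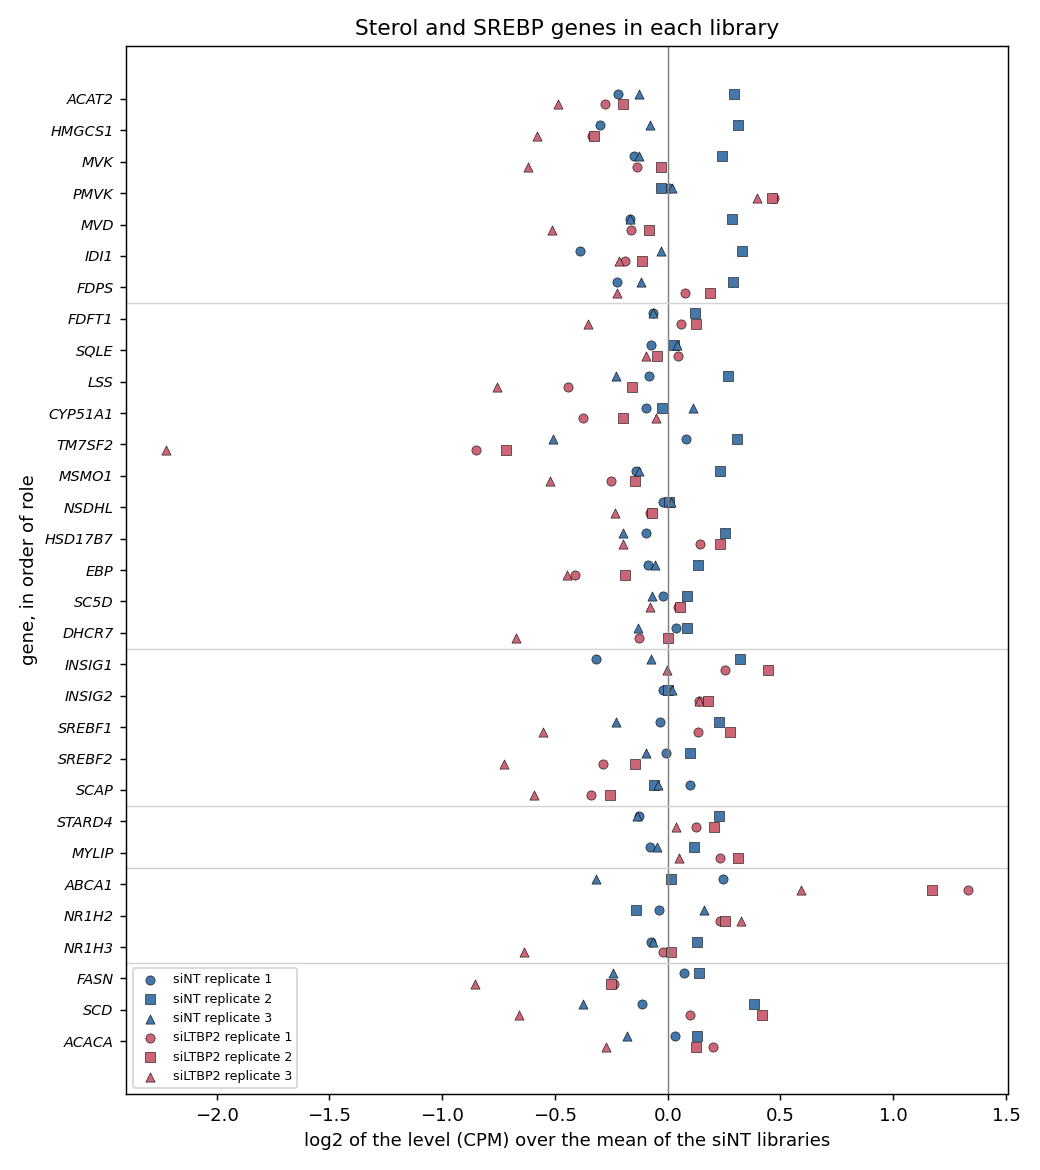
Level of each of the 31 tested genes in each library, as log2 of CPM over the mean of the siNT libraries, in order of role (mevalonate enzymes, squalene to cholesterol, SREBP pathway, transport and receptor turnover, LXR branch, fatty acid branch). Squares of siNT (replicate 2) lie to the right and triangles of siLTBP2 (replicate 3) to the left in most enzymes.

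In the SREBP machinery, *SCAP*, the sterol-sensing escort, fell. The gene (ENSG00000114650, 23 exons) lies on the minus strand of chromosome 3 (47413681 to 47477126). Its level was 166, 148 and 150.1 CPM in siNT and 122, 130 and 102 CPM in siLTBP2. The groups did not overlap. The mean went from 155 ± 9.58 to 118 ± 14.1 CPM (SD, n = 3), with a log2 fold change of -0.39 (SE 0.10, adjusted p = 0.023, edgeR). The call was lost without siNT replicate 1 (adjusted p = 0.075) or siLTBP2 replicate 3 (adjusted p = 0.063).

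*SREBF2* encodes SREBP2, the main activator of the cholesterol enzymes. It was at 243, 262 and 229 CPM in siNT and 201, 222 and 148 CPM in siLTBP2. The groups did not overlap, and the siLTBP2 libraries were spread more widely than the siNT libraries. The log2 fold change was -0.36 (SE 0.14, adjusted p = 0.086 by edgeR and 2.5e-04 with the replicate block). *SREBF1*, whose products act more on fatty acid genes, was at 121, 145 and 105 CPM in siNT and 135, 149.5 and 84.2 CPM in siLTBP2. The siLTBP2 libraries covered the whole range of the siNT libraries, with a log2 fold change of -0.01 (SE 0.19, adjusted p = 0.988).

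*INSIG1* holds SCAP in the endoplasmic reticulum and is itself an SREBP target. It was at 208, 324 and 247 CPM in siNT and 310, 353 and 259 CPM in siLTBP2. The groups overlapped, since siNT replicate 2 stood above siLTBP2 replicates 1 and 3. The log2 fold change was 0.24 (SE 0.16, adjusted p = 0.332 by edgeR and 0.016 with the replicate block). *INSIG2*, which does the same at a lower level, had means of 12.9 ± 0.17 and 14.3 ± 0.22 CPM in siNT and siLTBP2 (SD, n = 3). Its groups did not overlap, and its log2 fold change was 0.15 (SE 0.10, adjusted p = 0.335).

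The 3 fatty acid genes of the set did not pass the test. *FASN*, the fatty acid synthase, had a log2 fold change of -0.42 (SE 0.17, adjusted p = 0.103 by edgeR and 4.3e-05 with the block), with overlapping groups. *SCD*, the stearoyl-CoA desaturase, had 0.02 (SE 0.25), and *ACACA*, the acetyl-CoA carboxylase, had 0.03 (SE 0.13). Per exon length, *SCD* had the highest level of the 32 genes in siNT, at 206 CPM per kilobase, followed by *FASN* at 96.5, *INSIG1* at 71.2 and *MSMO1* at 60.1 CPM per kilobase. *SCD* ran from 834 to 1411 CPM over the siNT libraries and from 685 to 1447 CPM over the siLTBP2 libraries, so its groups overlapped.

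Over the 18 enzymes, 14 log2 fold changes were below 0 (77.8%), where 50.7% of all genes were. The median of the 18 was -0.22. The median was -0.11 without siNT replicate 2 and -0.098 without siLTBP2 replicate 3, with 12 enzymes below 0 in each case. The summed level of the enzymes was 1370, 1721 and 1381 CPM in siNT replicates 1 to 3 and 1335, 1431 and 1096 CPM in the siLTBP2 replicates. In both groups replicate 2 stood high. siNT replicate 2 was the highest siNT library in 14 of the 18 enzymes, and siLTBP2 replicate 2 the highest siLTBP2 library in 15 of them. Over all genes tested, they held those places in 33.9% and 28.4% of genes. The lowest library had another number in each group. It was siNT replicate 1 in 12 of the 18 enzymes and siLTBP2 replicate 3 in 17 of them, against 32.5% and 38.9% of all genes. An alternative added after the data were seen left out siNT replicate 2 and siLTBP2 replicate 3, which leaves 2 libraries against 2. The first was the highest siNT library in 23 of the 31 genes and the second the lowest siLTBP2 library in 29. Leaving both out therefore raises most fold changes by construction, and the direction of this shift is no result. In this fit 9 of the 18 enzymes lay below 0 and their median was -0.0009. This fit keeps siLTBP2 replicate 2 and siNT replicate 3, the libraries with the same numbers as those removed, so that its groups do not match by number. In it 8 of the 31 genes changed by edgeR's quasi-likelihood test, where 16.5% of all genes did (8.26% higher and 8.22% lower). *ABCA1*, *PMVK*, *SREBF1*, *SCD*, *FDPS*, *STARD4* and *INSIG1* were higher and *SCAP* was lower, and *TM7SF2* did not change, at a log2 fold change of -0.59 (adjusted p = 0.068). What set libraries apart was not tested.

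**Figure D3:**
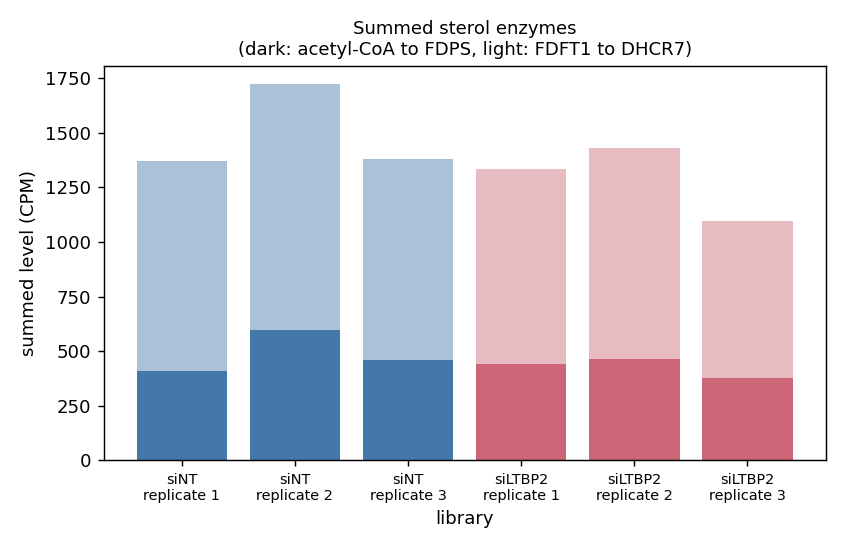
Summed level (CPM) of the 18 enzymes in each library, blue for siNT and red for siLTBP2. The dark part is the 7 mevalonate enzymes and the light part the 11 enzymes from squalene to cholesterol. The highest bar is siNT replicate 2 (1721 CPM) and the lowest is siLTBP2 replicate 3 (1096 CPM).

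Libraries with the same number deviated together from their group means, and the numbers were therefore also used as pairs. For replicate 2 this was weak on edgeR's log2 CPM scale (correlation 0.08). With the replicate number as a block in edgeR's fit, 16 of the 31 genes changed. 12 of them were lower in siLTBP2, which is 38.7% of the genes, where 17.9% of all genes were. The other 4 were higher, which is 12.9%, where 18.4% of all genes were. Among the 18 enzymes 10 changed, with 9 lower and 1 higher, *PMVK*. The lower enzymes were *ACAT2*, *HMGCS1*, *MVK*, *MVD*, *LSS*, *TM7SF2*, *MSMO1*, *EBP* and *DHCR7*. *SREBF2*, *SCAP* and *FASN* were lower as well, and *ABCA1*, *NR1H2* and *INSIG1* were higher.

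The fold changes stayed close to those of the fit without the block, and the standard errors were smaller. For *HMGCS1* the blocked log2 fold change was -0.39 (SE 0.08), for *LSS* -0.44 (SE 0.07), for *SREBF2* -0.38 (SE 0.08) and for *INSIG1* 0.25 (SE 0.08). *TM7SF2* had -1.19 (SE 0.13, adjusted p = 6.7e-09) and was then deregulated, beside *ABCA1*. 12 of the 31 genes were lower in siLTBP2 in all 3 pairs, where 29.4% of all genes were, and 6 were higher in all 3 pairs, or 19.4%, where 29.8% of all genes were. The lower genes included 9 of the 18 enzymes, or 50% of these. *LSS* and *EBP* were lower by similar amounts in every pair, with log2 differences of -0.36, -0.42 and -0.52 for *LSS* and of -0.30, -0.30 and -0.36 for *EBP*. *HMGCS1* was lower by 0.63 and 0.50 in pairs 2 and 3 and nearly level in pair 1 (-0.04).

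**Figure D4:**
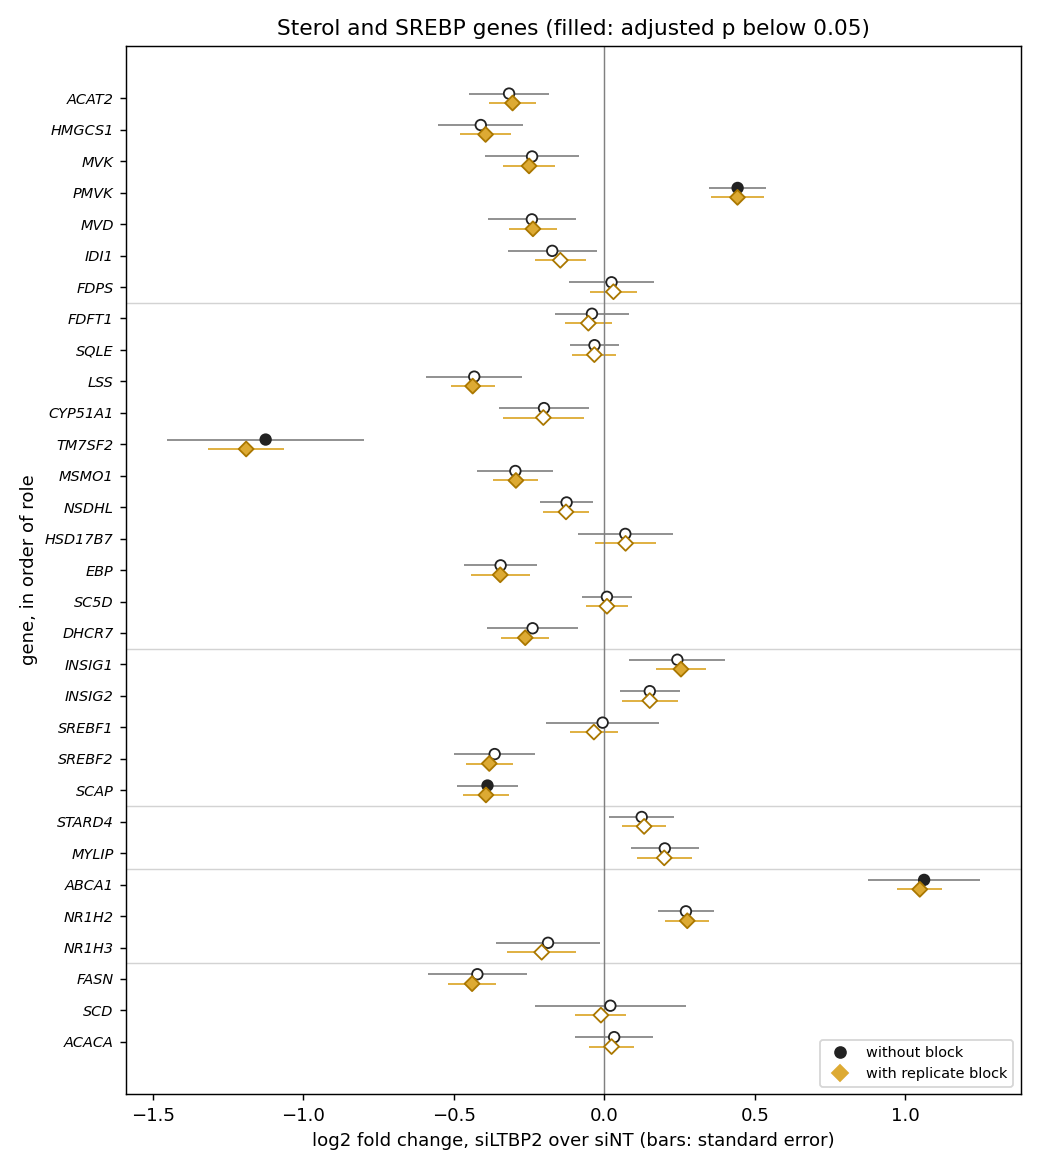
Log2 fold change of siLTBP2 over siNT for the 31 tested genes, in order of role, without the replicate block (circles) and with it (diamonds). Bars show the standard error and filled symbols an adjusted p below 0.05, which 4 genes reach without the block and 16 with it.

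A further 59 genes of sterol and SREBP biology were listed beside the set, and 55 of them had enough reads to be tested. Of these, 17 changed by edgeR, 10 higher and 7 lower, which is 30.9%, where 19.3% of all genes tested changed. The list was chosen with earlier results of these data known, so its share is no independent evidence. With the replicate block 28 changed, or 50.9%, where 36.2% of all genes did, and without siLTBP2 replicate 2 there were 11. *NCEH1*, a hydrolase of cholesterol esters, was the only one deregulated. It was at 106, 80.8 and 109 CPM in siNT and 269, 249 and 327 CPM in siLTBP2. The siLTBP2 libraries were all above the siNT libraries, with a log2 fold change of 1.51 (SE 0.14, adjusted p = 8.0e-05). *SOAT1*, which forms cholesterol esters, rose too, with a log2 fold change of 0.78 (SE 0.09). Of the 12 storage and transport genes, 5 changed, or 41.7%, where 19.3% of all genes did. *GRAMD1A*, a carrier of sterol from the plasma membrane, was the one that fell (log2 fold change -0.42, SE 0.08). With the block *NPC2*, of the same group, was higher as well (log2 fold change 0.39, adjusted p = 1.5e-04, edgeR).

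Of the genes that cut or handle SREBP, *ERLIN2* and *ERLIN1* rose and none fell in the fit without the block. With the block *MBTPS1*, of the same group, was higher (log2 fold change 0.23, adjusted p = 0.013, edgeR). *SEC24D*, a coat protein of vesicles that leave the endoplasmic reticulum, was then lower (log2 fold change -0.22, adjusted p = 0.018, edgeR). *ERLIN2* and *ERLIN1* take part in degradation at the endoplasmic reticulum. *ERLIN2* had the largest log2 fold change, 0.69 (SE 0.10, adjusted p = 0.0010, edgeR), and *ERLIN1* had 0.40 (SE 0.09). Of the 10 further SREBP targets, 3 fell without the block, where 9.51% of all genes did, and none rose. *ME1*, the malic enzyme, fell by 0.53 on the log2 scale (SE 0.08). *ACLY*, which makes cytosolic acetyl-CoA from citrate, fell by 0.52 (SE 0.10), and *TMEM97*, a sterol-binding membrane protein, by 0.52 (SE 0.11). These 3 were also lower without siNT replicate 2 and siLTBP2 replicate 3, but *LPIN1*, *FADS1* and *FADS2* of the same group were then called higher. With the block, *LPIN1* (log2 fold change 0.26, adjusted p = 0.0060, edgeR) and *FADS1* (0.23, adjusted p = 0.025) were higher, and *ACSS2* and *ELOVL6* were lower (-0.20 and -0.19, adjusted p = 0.032 and 0.038).

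*LBR*, an inner nuclear membrane protein with the same sterol reductase activity as *TM7SF2*, rose from 121 ± 9.0 to 216 ± 15.9 CPM (SD, n = 3), a log2 fold change of 0.83 (SE 0.09, adjusted p = 2.4e-04, edgeR). *ACACB*, the mitochondrial acetyl-CoA carboxylase, fell by 0.66 on the log2 scale (SE 0.18), and the call was lost without siNT replicate 1 or siNT replicate 2. *DHDDS*, which lengthens dolichol chains, was the 1 of 9 isoprenoid genes that changed without the block (log2 fold change -0.30, SE 0.09), and its call was lost without replicate 1 or 3 of siNT or any of the siLTBP2 libraries. With the block *COQ2*, an enzyme of ubiquinone synthesis, was higher as well (0.29, adjusted p = 0.0088, edgeR). *RXRA*, the partner of the LXR receptors, was the 1 of 6 LXR targets and cofactors that changed without the block (log2 fold change -0.40, SE 0.10), and its call was lost without replicate 1 or 3 of siNT or replicate 3 of siLTBP2. With the block its relative *RXRB* was lower too (-0.22, adjusted p = 0.039, edgeR). Over all genes tested, 19.3% changed in the fit without the block. *LPCAT3* and *SMPDL3A*, both LXR targets, had log2 fold changes of -0.01 and 0.10. *CH25H* and *CYP7B1*, which make and clear oxysterols, had too few reads to be tested, with at most 3 reads in a library.

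The word GCACCCA in the 3′ UTR was also looked for, since an earlier search of these same libraries had picked it out, so that it is no independent evidence. It stood in the 3′ UTR of *MVK* and *LSS* and of no other tested gene of the set, by the canonical transcripts of GENCODE 44. That is 6.45% of the 31, where 11.8% of 12314 tested genes carry it. The sites are shown with the word in capitals and 10 bases on each side.
MVK: agaatcacaaGCACCCAcgagagcaca
LSS: gggacagccaGCACCCAgcccatcacc
The site in *MVK* begins at base 937 of 1548 of its 3′ UTR, and that in *LSS* at base 950 of 2658. The median log2 fold change was -0.34 in these genes and -0.04 in the rest of the set, and over all genes it was -0.15 with the word and 0.02 without. None of the 4 genes that changed carries it in the 3′ UTR, though *ABCA1* has 1 copy in its coding sequence.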

How the data were processed

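RNA sequencing of 6 CCD18Co libraries was analysed, 3 of siLTBP2 and 3 of siNT. The authors deposited raw counts per gene from stranded, ribosomal RNA depleted libraries, without normalization. Their notes name STAR 2.7.1a, HTSeq 0.11.2 and GRCh38. The Ensembl release and the strand setting were not given in these sources. Library totals limit the precision for genes of few reads. Same-group libraries differed by more than sampling noise (chi-square per degree of freedom 27.8 to 55.2).

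Counts were filtered (filterByExpr), normalized (TMM) and tested two-sided with glmQLFit and glmQLFTest in edgeR 4.0.16 (R 4.3.3), with no block, over all genes. Standard errors are the log2 fold change over the square root of the test statistic. The steps were tested on simulated data. The study's likelihood ratio test, DESeq2 1.42.0, other scalings and filters, the replicate block and leaving out each library were alternatives.

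Genes and lists were chosen with earlier results of these data known. Every gene of the set is named. Values per library are given for those changed and for *INSIG1*, *SREBF1*, *SREBF2*, *HMGCS1* and *SQLE*. Further pathway genes are named when deregulated or when of largest change, in each direction, in their group, and others were chosen after their values were seen. The values of 1 further pathway gene are not reported here.

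The pairing rests on the data and not on the labels, which say only that libraries are numbered. Deviations from the group means, as log2(CPM + 1) over all tested genes, correlated at 0.50, 0.25 and 0.62 between libraries of the same number. On this scale each library correlated best with its own number. On edgeR's log2 CPM scale the values were 0.30, 0.08 and 0.43, so that on this scale the second pair is not above 0.1. There siNT replicate 2 correlated better with siLTBP2 replicate 1 (0.103) than with siLTBP2 replicate 2. How the blocked fit moves earlier calls in these data was known when this was decided.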

Additional observations from a re-analysis of the deposited data

How the results depend on the processing

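The calls depended on the test and the libraries used. Of 31 genes, 4 changed by edgeR's quasi-likelihood test, 7 by DESeq2 and 16 with the replicate block. With no filter on low counts 10 of 32 changed, since *ABCG1* was then tested too. With both siNT replicate 2 and siLTBP2 replicate 3 left out, an alternative chosen after seeing the data, 8 of 31 changed. That choice raises most fold changes of the set by construction. Among the 18 enzymes 2 changed, against 4 by the likelihood ratio test, 6 with no filter, 10 with the replicate block and 1 to 3 with each library left out in turn (1 without siNT replicate 2). Among the 13 other tested genes 2 changed, against 4 by DESeq2, 4 with no filter, 6 with the replicate block, 6 without both libraries and 1 to 3 with each left out (1 without siNT replicate 1 or siLTBP2 replicate 3). *TM7SF2* was deregulated by the likelihood ratio test, with no filter and with the replicate block, which makes 2 genes of the set and 1 of the enzymes, against 1 and 0. With each library left out, 0 to 1 genes of the set were deregulated (0 without replicate 2 or 3 of siNT, or replicate 1 or 2 of siLTBP2). Of the further pathway genes 28 changed with the replicate block, against 17, and 11 to 16 with each library left out (11 without siLTBP2 replicate 2). Over all genes 6131 changed with the replicate block, against 3261, and 2158 to 2781 with each library left out (2158 without siLTBP2 replicate 2). By DESeq2 3595 of 16920 genes changed, by the likelihood ratio test 3803 of 16920, and with no filter 3872 of 33596. Without both libraries 2799 of 16977 did. With no filter 680 genes were deregulated, against 434, and with the replicate block 636.

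Fold changes near 0 changed sign. With total counts as the scale, which shifted the median of all genes by -0.04, log2 fold changes were -0.020 for *FDPS*, -0.031 for *SC5D*, -0.025 for *SCD* and -0.0078 for *ACACA*. With no filter *SC5D* was at -0.0037, and with the replicate block *SCD* was at -0.011. Without both libraries *MVK* was at 0.057, *MVD* at 0.046, *IDI1* at 0.046, *FDFT1* at 0.16, *SQLE* at 0.013, *SREBF1* at 0.34 and *NR1H3* at 0.068. With each library left out in turn, values ran from -0.34 to 0.024 for *IDI1*, -0.081 to 0.19 for *FDPS*, -0.14 to 0.10 for *FDFT1*, -0.072 to 0.0020 for *SQLE*, -0.024 to 0.22 for *HSD17B7*, -0.023 to 0.054 for *SC5D*, -0.18 to 0.21 for *SREBF1*, -0.24 to 0.27 for *SCD* and -0.058 to 0.17 for *ACACA*. The cause was not tested, except that a set with libraries left out has fewer libraries by construction. Leaving out both libraries also raises most fold changes of the set by construction. None of these genes was called changed in the fit without the block. Depth limits *ABCG1*, at 5 reads or fewer in each library.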
